A study of Mus musculus with 6 samples.

Results

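Bone and calcified cartilage are resorbed by osteoclasts, and 10 genes that mark these cells or control their formation were examined in the growth plate of mice with a conditional mutation of Lkb1. They were chosen by name: Acp5, Ctsk, Dcstamp, Atp6v0d2, Oscar, Tnfrsf11a, Nfatc1, Itgb3, Tnfsf11 and Tnfrsf11b. Each had 1 probe set annotated to that gene alone, and the 10 genes were read out of 17020 genes tested. Gene expression was measured with Affymetrix arrays in chondrocytes isolated from hindlimb growth plates at postnatal day 30, in 3 control and 3 Lkb1 mutant samples on a mixed FVB, 129S6 and C57CL/6 background. The kinase LKB1, encoded by Stk11, acts upstream of AMPK. Neither the promoter that drives recombination nor the alleles of the control mice are named in these sources. Replicates are labelled biological, with no word on whether each was a separate animal, so p-values measure only the spread among these samples, which may be technical.

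Osteoclasts form by fusion of monocyte precursors. RANK ligand (Tnfsf11), made by osteoblast lineage cells and hypertrophic chondrocytes, binds its receptor RANK (Tnfrsf11a) on the precursors, and osteoprotegerin (Tnfrsf11b) is a soluble decoy that captures the ligand. RANK signalling and the co-receptor OSCAR induce the transcription factor NFATc1, which turns on genes for fusion, adhesion, acid secretion and matrix digestion. At the growth plate these cells remove calcified cartilage where it meets bone.

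Ctsk, the gene of the collagen-degrading protease cathepsin K, and Atp6v0d2, a proton pump subunit of osteoclasts, rose in the mutants, by 2.46-fold and 2.90-fold. None of the other 8 genes passed the test. RANK ligand, RANK and osteoprotegerin differed by at most 0.24 on the log2 scale, with intervals that include 0. Acp5, the gene of tartrate-resistant acid phosphatase, and Itgb3, an integrin chain, varied most among the controls (SD 0.60 and 0.80). All values are log2(intensity + 1), a scale on which a step of 1 is a doubling of signal, and a call is a limma adjusted p of at most 0.05 over all genes tested. The 2 calls among 10 genes compare with 14.7% of all genes tested called in either direction, and with 7.84% called higher and 6.82% called lower, so the number of calls says little about the genes as a set. The groups did not overlap for 4 of the 10 genes, Ctsk, Atp6v0d2, Nfatc1 and Itgb3, against 36.7% of all genes; 3 lay higher and 1 lower, against 20.0% and 16.7%. The median difference of the 10 genes was 0.20, against 0.03 over all genes tested. The cells were measured in bulk, where a change in the number of cells of a type and a change in RNA per cell cannot be told apart.

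**Figure D1:**
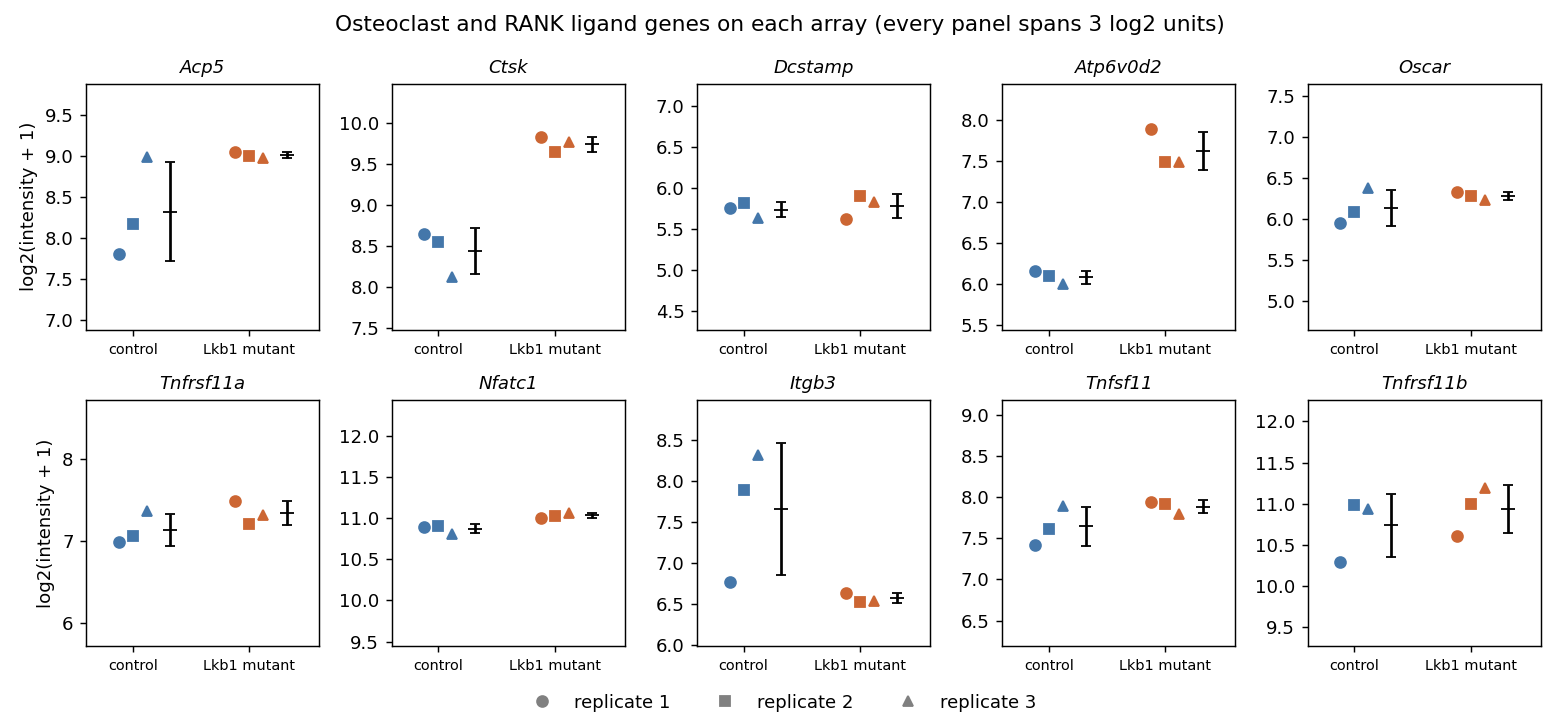
Level of each of the 10 genes, as log2(intensity + 1), on the 3 control (blue) and 3 Lkb1 mutant (orange) arrays. Marker shapes give the replicate number, black bars the mean ± SD, and every panel spans 3 log2 units; Ctsk and Atp6v0d2 stand at least 0.99 higher on every mutant array than on any control array, while the controls of Acp5 and Itgb3 are spread widely.

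Some facts on the arrays touch these values. Median intensities per array were 82.4 to 90.5, and 3 arrays per group limit the precision. All 10 chondrocyte markers, among them Col2a1 and Acan, exceeded the background on all 6 arrays, with list means of 11.91 to 12.02 in the controls and 11.83 to 11.92 in the mutants. Of these markers 1 was called: Col10a1 fell by 0.50, from a mean of 12.18 to 11.68 (limma adjusted p = 0.0114). Background here is the 95% point of 1035 probe sets of olfactory receptor genes, 6.40 to 6.73 per array. The targeted gene Stk11 was 8.68, 9.08 and 9.67 in the controls and 7.39, 7.51 and 7.52 in the mutants (difference -1.67, limma adjusted p = 0.00387); whether its probes lie in the deleted part is not known here. Bone marrow markers differed strongly between the groups and among the controls. The mean of 11 neutrophil markers was 9.12, 10.18 and 10.75 across the 3 controls and 5.86 to 6.32 in the mutants, that of 5 erythroid markers 7.89, 9.21 and 10.26 against 5.25 to 5.51, and that of 8 B lymphoid markers 7.97, 7.97 and 8.70 against 6.17 to 6.44. In all mutants 2 of 11 neutrophil, 0 of 5 erythroid and 2 of 8 B lymphoid markers exceeded the background. Markers of fibrous tissue (4 of 5 called higher) and endothelium (6 of 8 called higher) went the other way. Over all genes tested, 7.84% were called higher and 6.82% lower.

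The promoter windows of the genes at both ends of this pathway are shown as context for the values that follow. RefSeq windows of 300 bases, 250 before and 50 after an annotated start (build GRCm38.p6), were read for 5 of the 10 genes, 7 windows in all. Capitals mark letters of 3 motifs searched on both strands: GGAAA, the core bound by NFAT factors; TCACGTGA or TCATGTGA, the M-box bound by MITF; and TGANTCA, bound by AP-1. No marked motifs overlap. The Ctsk window (chr3:95498960-95499259, plus strand) is shown because this gene rose. The Acp5 window (chr9:22130549-22130848, minus strand) is from 1 of its 3 starts, and the Tnfsf11 window (chr14:78307994-78308293, minus strand) belongs to the ligand of the pathway.
Ctsk: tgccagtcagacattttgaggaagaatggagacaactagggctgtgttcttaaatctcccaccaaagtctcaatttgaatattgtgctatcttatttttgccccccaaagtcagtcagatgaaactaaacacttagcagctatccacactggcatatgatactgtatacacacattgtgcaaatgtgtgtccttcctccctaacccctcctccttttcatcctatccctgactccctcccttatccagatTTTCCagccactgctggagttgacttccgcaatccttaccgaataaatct
Acp5: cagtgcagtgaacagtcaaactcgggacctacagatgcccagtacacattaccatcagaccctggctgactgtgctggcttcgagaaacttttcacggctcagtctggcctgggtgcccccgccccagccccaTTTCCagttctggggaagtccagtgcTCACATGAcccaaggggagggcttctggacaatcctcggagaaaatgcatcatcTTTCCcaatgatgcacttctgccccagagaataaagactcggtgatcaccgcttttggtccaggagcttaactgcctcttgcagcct
Tnfsf11: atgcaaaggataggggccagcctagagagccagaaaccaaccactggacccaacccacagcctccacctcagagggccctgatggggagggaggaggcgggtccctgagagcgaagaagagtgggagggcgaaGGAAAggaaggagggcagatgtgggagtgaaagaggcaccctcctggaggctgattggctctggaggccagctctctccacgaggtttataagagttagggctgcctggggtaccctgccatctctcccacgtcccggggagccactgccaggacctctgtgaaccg
The Ctsk window holds 1 GGAAA core, read from the opposite strand at the annotated start. The Acp5 window shown holds 2 such cores and 1 M-box, written TCACATGA on the shown strand, whose first base lies at position -91 from the start; it was picked with these matches known, and the windows of the other 2 starts hold 1 core each and 0 M-boxes. A GGAAA core is in 61.3% of all 32851 windows of this length, an M-box in 1.94% and the AP-1 letters in 7.81%. The AP-1 letters are in 0 of the 7 windows read. The Tnfsf11 window holds 1 GGAAA core at position -117 and no M-box. These matches describe letters only.

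The ligand, its decoy and its receptor were all above background on every array, and none was called. RANK ligand (Tnfsf11, probe set 10421737) was 7.42, 7.62 and 7.90 in the controls and 7.94, 7.92 and 7.80 in the mutants, here and below in the order of replicates 1, 2 and 3. The highest control lies above the lowest mutant, so the groups overlap. The difference was 0.24 (SE 0.13, 95% interval -0.07 to 0.55, limma adjusted p = 0.276). It was 0.13 (limma adjusted p = 0.504) without control replicate 1 and 0.37 (limma adjusted p = 0.055) without control replicate 3. Without control replicates 2 and 3 it was 0.47, with 1 control left, whose spread cannot be estimated. Osteoprotegerin (Tnfrsf11b, probe set 10428604) was 10.29, 10.98 and 10.93 in the controls and 10.61, 11.00 and 11.19 in the mutants. Its first replicate was lowest in each group, and the groups overlap, with a difference of 0.20 (SE 0.22, 95% interval -0.31 to 0.70, limma adjusted p = 0.597). Without control replicate 1 that difference was -0.02, and over the other single arrays left out it lay between 0.07 (without mutant replicate 3) and 0.36 (without mutant replicate 1). RANK (Tnfrsf11a, probe set 10349051) was 6.99, 7.06 and 7.36 in the controls and 7.49, 7.21 and 7.32 in the mutants. Control replicate 3 lies within the mutant range, and the difference was 0.20 (SE 0.13, 95% interval -0.09 to 0.50, limma adjusted p = 0.342). It was 0.13 without control replicate 1 or mutant replicate 1 and 0.32 (adjusted p = 0.101) without control replicate 3.

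The balance of ligand to decoy is often read from their ratio. The log2 difference between Tnfsf11 and Tnfrsf11b, set to a control mean of 0 because 2 probe sets do not share a scale, was 0.22, -0.27 and 0.06 in the controls. Among the mutants it was 0.41, 0.01 and -0.30. Both groups lie on both sides of each other, with a difference of 0.04 and SDs of 0.25 and 0.36. The two-sided exact permutation test gave p = 1 (adjusted p = 1 over 3 such contrasts), where 3 against 3 arrays can give no p below 0.1. The sign of the difference changed without control replicate 2 (-0.10) and without mutant replicate 1 (-0.15).

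NFATc1 and the co-receptor OSCAR stand between the receptor and the target genes. Nfatc1 (probe set 10459944), which is also made by other cells such as T cells, was 10.90, 10.91 and 10.81 in the controls and 11.01, 11.03 and 11.07 in the mutants. Of all genes tested, 98.5% had a mean no higher than that of Nfatc1, though probe sets do not share a scale. Which cells carry this signal was not tested. Each mutant array was higher than each control array, with a gap of 0.09 between the groups. The difference of 0.16 (SE 0.08, 95% interval -0.03 to 0.36) was not called (limma adjusted p = 0.244). Oscar (probe set 10559399), which signals through ITAM adaptors, was 5.95, 6.09 and 6.38 in the controls and 6.33, 6.28 and 6.23 in the mutants. None of these 6 values exceeded the background of its array, and the difference was 0.14 (limma adjusted p = 0.521). Dcstamp (probe set 10423894), whose membrane protein is needed for fusion of precursors, was 5.76, 5.82 and 5.64 in the controls and 5.62, 5.90 and 5.83 in the mutants. It too was at background on all 6 arrays, with a difference of 0.04 (limma adjusted p = 0.825), so neither gene gives a measured level here. Ocstamp, a related fusion gene, differed by 0.18 (limma adjusted p = 0.289) and exceeded the background on 2 of 6 arrays, both mutant.

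Of the 3 genes of the resorbing osteoclast, Ctsk and Atp6v0d2 rose and Acp5 was not called. Ctsk (probe set 10494262), which fibroblasts also express, was 8.64, 8.55 and 8.12 in the controls and 9.82, 9.64 and 9.76 in the mutants. Every mutant array was higher than every control array by at least 0.99. The rise was 1.30 (SE 0.15, 95% interval 0.96 to 1.64), or 2.46-fold, with a limma adjusted p of 0.00186. Atp6v0d2 (probe set 10511779), the d2 subunit of the vacuolar proton pump and also needed for precursor fusion, was 6.16, 6.10 and 6.00 in the controls and 7.89, 7.49 and 7.49 in the mutants. The controls were all at background and the mutants all above it, with a gap of 1.33. The rise of 1.54 (SE 0.13, 95% interval 1.24 to 1.84) was 2.90-fold, with a limma adjusted p of 0.00066, and background in the controls limits its size. Of all genes tested, 2.66% changed by more in either direction than Ctsk.

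The other subunits of the same pump were not called. Of 13 measured subunits, all above background on every array, 0 were called in either direction by limma, against 14.7% of all genes, and their median difference was -0.05. At an unadjusted limma p under 0.05, 5 of the 13 passed. The share of all genes at that threshold was not counted, so this number says little about the pump. Of the 5 subunits, Atp6v1a was higher, while Atp6v0a1, Atp6v0b, Atp6v0d1 and Atp6v1e1 were lower, by 0.24 to 0.28. Atp6v1a, a catalytic subunit, was 8.93 ± 0.02 in the controls and 9.21 ± 0.02 in the mutants (SD, n = 3 each; limma adjusted p = 0.0527), and it was called under 5 of 16 alternatives: quantile normalisation (0.0400), a filter at the median (0.0345), an intensity trend (0.0385), a pseudocount of 16 (0.0402) and array weights (0.00137, a fit that stopped before converging). Atp6v0d1, the widely expressed counterpart of Atp6v0d2, was 9.73, 9.58 and 9.69 in the controls and 9.43, 9.42 and 9.34 in the mutants (limma adjusted p = 0.0850). The difference between Atp6v0d2 and Atp6v0d1 within each array was larger in the mutants by 1.80 and did not overlap between the groups. Its two-sided exact permutation p was 0.1, the smallest that 3 against 3 arrays allow, and 0.3 when adjusted over 3 contrasts. This contrast and that of Ctsk with Acp5 were chosen after the values were seen.

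Acp5 (probe set 10591739), which macrophages also express, was 7.81, 8.17 and 8.99 in the controls and 9.05, 9.0 and 8.98 in the mutants. The mutants lay close together (SD 0.03), while control replicate 3 reaches their range and the other controls do not. The difference was 0.69 (SE 0.27, 95% interval 0.07 to 1.31, limma adjusted p = 0.132). Without control replicate 3 it was 1.02 (adjusted p = 0.00318), a call; without control replicate 1 it was 0.43 (adjusted p = 0.224). Without control replicates 2 and 3 together it was 1.20, a fit in which the lone control is assumed to vary like the mutants. Control replicate 3 also had the highest neutrophil, erythroid and platelet means among the controls, and the part of these cells in the Acp5 level was not tested. Ctsk was lowest on that same control array. The difference between Ctsk and Acp5 within each array was larger in the mutants by 0.61, with overlapping groups (two-sided exact permutation p = 0.4, adjusted p = 0.6), and it rests on single controls: it was 0.12 without control replicate 3, 0.97 without control replicate 1 and -0.10 without control replicates 2 and 3.

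**Figure D2:**
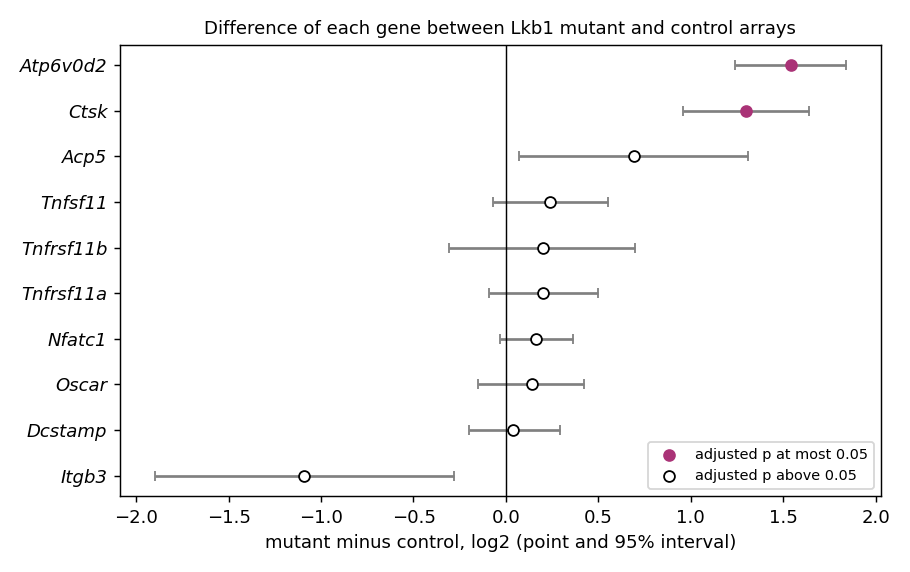
Difference of each gene between Lkb1 mutant and control arrays on the log2 scale, with its 95% interval from the limma fit of 17020 genes. Filled points passed an adjusted p of 0.05, which Atp6v0d2 (1.54) and Ctsk (1.30) did; the intervals of Acp5 and Itgb3 exclude 0 although their adjusted p did not pass.

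Itgb3 (probe set 10381809) encodes the beta3 integrin chain, which pairs with the alpha v chain (Itgav) on osteoclasts and with the alpha IIb chain (Itga2b) on platelets. It was the member with a lower mean in the mutants: 6.77, 7.89 and 8.32 in the controls against 6.64, 6.53 and 6.54. The groups do not overlap, but control replicate 1 lay only 0.13 above the highest mutant. The mutants lay near background, 2 of 3 of them above it, which limits the size of the fall. The difference was -1.09 (SE 0.35, 95% interval -1.90 to -0.28), 2.13-fold lower, and was not called (limma adjusted p = 0.0782). It was called without control replicate 1 (-1.54, limma adjusted p = 0.000799) and narrowly with median centring (limma adjusted p = 0.0496). Without control replicates 2 and 3, which leaves 1 control, the difference was -0.20. The mean of 5 megakaryocyte and platelet markers was 6.97, 8.37 and 8.76 in the controls and 6.32 to 6.62 in the mutants. Its controls stand in the same order as those of Itgb3, but so do the neutrophil and erythroid means, Acp5, Tnfsf11 and Stk11. Of the 5 markers, 4 exceeded the background in all controls and 1 in all mutants. Itga2b was 6.68, 7.29 and 7.59 in the controls and 6.60, 6.48 and 6.37 in the mutants (limma adjusted p = 0.0707), and Ppbp, a platelet chemokine gene, fell to background in all mutants (difference -3.72, limma adjusted p = 0.0140), which limits the size of that fall. Itgav differed by 0.09 (limma adjusted p = 0.571). The part of platelet-lineage cells in the Itgb3 difference was not tested.

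**Figure D3:**
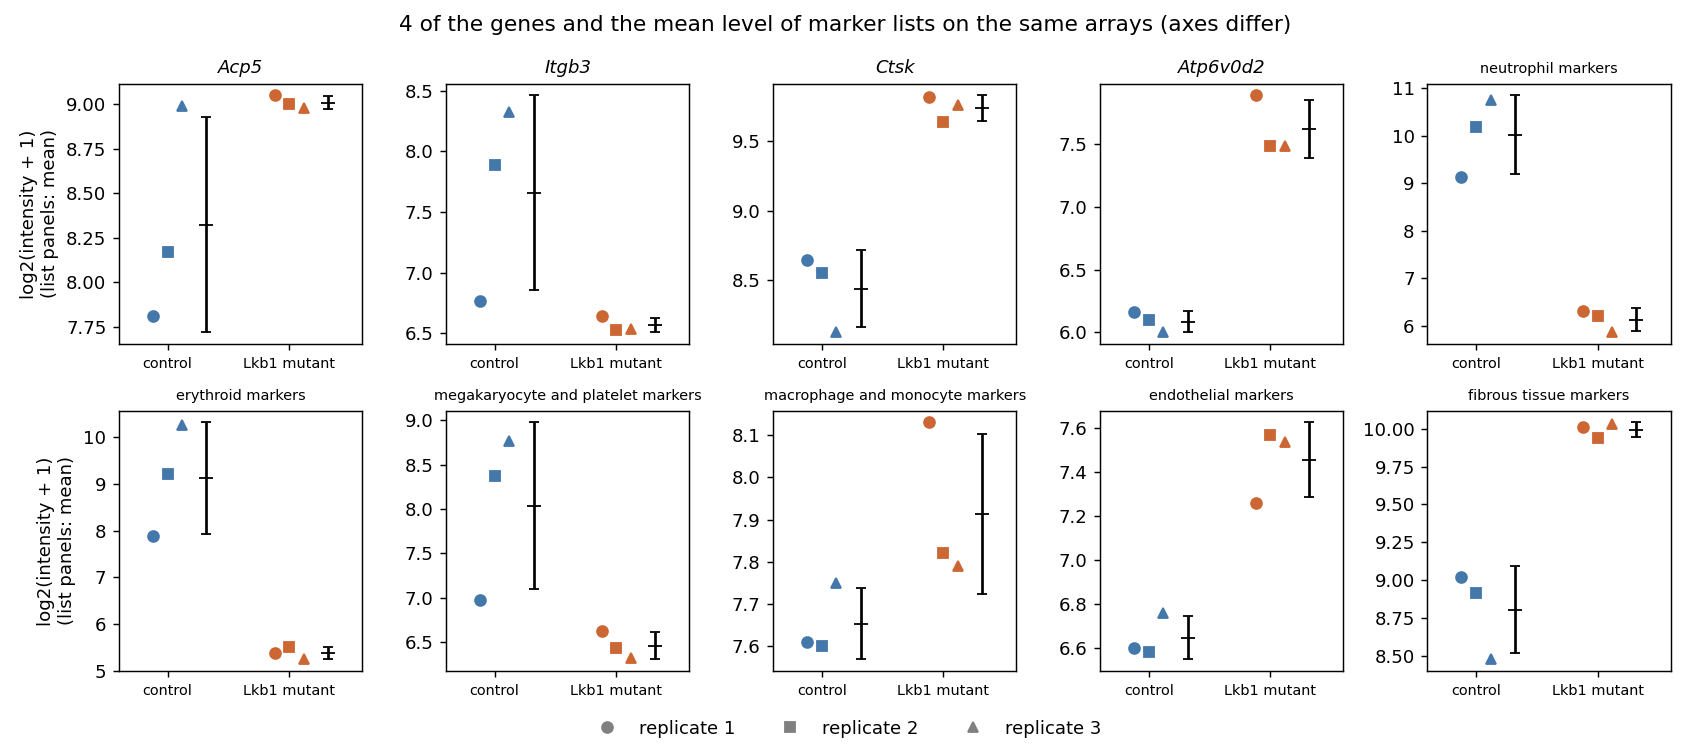
Acp5, Itgb3, Ctsk and Atp6v0d2 beside the mean log2(intensity + 1) of 6 marker lists on the same arrays, with controls in blue, Lkb1 mutants in orange, shapes for replicate numbers and black bars for mean ± SD; the axes differ between panels. The platelet list means run 6.97, 8.37 and 8.76 in control replicates 1, 2 and 3, the order in which Itgb3 is 6.77, 7.89 and 8.32. Acp5 and the neutrophil and erythroid list means rise in the same order.

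Cells of the lineages that could carry these transcripts were read from their markers. Of 12 macrophage and monocyte genes, 7 rose, 2 fell and 3 were not called. Over all genes tested, 7.84% were called higher and 6.82% lower. C1qb rose by 0.97 (limma adjusted p = 0.00787) and Adgre1, a macrophage surface receptor gene, by 0.73 (adjusted p = 0.0323), while Cd14 fell by 1.22 (adjusted p = 0.0443). The list mean was 7.61, 7.60 and 7.75 in the controls and 8.13, 7.82 and 7.79 in the mutants, so the groups did not overlap. The log2 of the summed signal, in which Lyz2, a bright gene that fell and is also a neutrophil gene, counts most, overlapped: it was 11.98 to 12.56 in the controls and 11.91 to 12.43 in the mutants. C1qa, C1qb, C1qc, Adgre1, Cd68 and Mrc1 were each highest on mutant replicate 1. So were Atp6v0d2, Ctsk, Acp5, Tnfrsf11a and Tnfsf11. Fcgr1 and Cd163 were highest on mutant replicate 2, and Cd14, Lyz2, Ccr2 and Cx3cr1 on a control array. T lymphoid markers, another possible source of RANK ligand, were near background: of 6 measured, 0 exceeded it in all controls and 1, Cd4, in all mutants. Of 7 osteoblast and osteocyte genes tested, 2 rose, Col1a1 (1.91) and Col1a2 (0.77), and Phex fell by 0.80 to background. Col1a1 and Col1a2 are also expressed by fibrous cells. Ibsp (0.30), Sost (0.12), Dmp1 (0.01) and Sp7 (-0.38) were not called, and Mepe was too dim to be tested. The mean of the 8 measured osteoblast and osteocyte genes was 8.08 to 8.40 in the controls and 8.50 to 8.54 in the mutants; the log2 of their summed signal was 12.63 to 12.90 and 13.53 to 13.66. The 5 fibrous tissue markers had means of 8.48 to 9.02 in the controls and 9.94 to 10.03 in the mutants. As Ctsk is expressed outside osteoclasts too, these values stand beside its rise. The part of macrophages, fibrous cells or osteoblasts in the rises of Ctsk and Atp6v0d2 was not tested.

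The wider pathway moved both ways. Of 64 further genes tested in 9 role groups, 9 rose and 10 fell, with a median difference of -0.02. Over all genes tested, 7.84% were called higher and 6.82% lower, with a median of 0.03. As the groups were chosen with earlier results of these data known, their counts say little about them as sets. In the CSF1 axis, which feeds osteoclast precursors and macrophages, 1 of 3 genes was called: the receptor gene Csf1r rose by 0.73 (SE 0.13, limma adjusted p = 0.0123), a call lost without control replicate 2 (adjusted p = 0.0531). Its ligand genes Csf1 and Il34 differed by 0.17 and 0.14 (limma adjusted p = 0.273 and 0.348). Of 10 genes that carry the RANK signal to NF-kB and MAP kinases, 1 fell and 0 rose. That gene was Mapk14, which encodes p38 alpha (-0.64, limma adjusted p = 0.0275), and the call ended without control replicate 2 and without each mutant replicate (adjusted p = 0.0781 to 0.103). Traf6, the adaptor that binds RANK, differed by -0.11 (limma adjusted p = 0.443).

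Genes of ITAM co-stimulation, the second signal that osteoclasts share with other myeloid cells, were called in 5 of 7 cases, 1 higher and 4 lower. Over all genes tested, 14.7% were called, 7.84% higher and 6.82% lower. The kinase gene Syk was 7.89, 8.12 and 8.82 in the controls and 6.72, 6.48 and 6.49 in the mutants, a fall of 1.71 (limma adjusted p = 0.00348) to a level above background on 1 of 3 mutants. Tyrobp, the adaptor DAP12, fell by 1.53 (limma adjusted p = 0.0101; 0.0502 without mutant replicate 3). Btk fell by 1.07 (limma adjusted p = 0.0114; 0.0527 without mutant replicate 1), with 2 of 3 controls and 0 of 3 mutants above background, so the size of its fall is limited. Trem2, a receptor that pairs with DAP12, rose by 0.93 (limma adjusted p = 0.0114, or 0.0505 without control replicate 2). Only 1 of 3 controls exceeded the background, so the size of its rise is limited. Syk, Tyrobp, Btk and Plcg2 were each highest on control replicate 3, the array with the highest neutrophil and B lymphoid means; the part of those cells was not tested.

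Among 6 osteoclast transcription factor genes, 2 rose and 1 fell (all genes tested: 7.84% called higher and 6.82% lower). Fos, an AP-1 subunit needed for osteoclast formation, was 10.46, 10.50 and 10.26 in the controls and 11.14, 11.17 and 11.11 in the mutants, a rise of 0.74 (limma adjusted p = 0.00341). Mitf, which acts on the Acp5 and Ctsk promoters in osteoclasts, rose by 0.38 (limma adjusted p = 0.0484); leaving out any array other than control replicate 1 ended that call (adjusted p = 0.0559 to 0.175), as did quantile normalisation (0.0761), median centring (0.0867), no filter (0.0612) and the replicate block (0.0582). Spi1, the myeloid factor PU.1, fell by 1.32 (limma adjusted p = 0.0116), with 0.0501 and 0.0542 without mutant replicates 2 and 3. Of 2 measured repressors of the lineage, Irf8 fell by 1.21 (limma adjusted p = 0.0249), a call that ended without control replicate 2 and without each mutant replicate (adjusted p = 0.0654 to 0.0917), and Bcl6 was not called.

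Of 9 further genes of the resorption machinery, 1 fell and 0 rose (all genes tested: 6.82% called lower and 7.84% higher). Car2, carbonic anhydrase II, which makes protons in osteoclasts and is abundant in red cells, was 8.84, 10.52 and 11.31 in the controls and 6.02, 6.20 and 5.86 in the mutants. It was at background in all mutants, with a fall of 4.20 (limma adjusted p = 0.00333). Its controls stand in the same order as the erythroid means, and also as the neutrophil and platelet means. Mmp9, a gelatinase of osteoclasts and neutrophils, was 8.96, 9.69 and 10.34 in the controls and 8.56, 8.62 and 8.69 in the mutants (limma adjusted p = 0.0594). The part of red cells and neutrophils in these differences was not tested. Tcirg1, the pump subunit of the ruffled border, differed by -0.08 (limma adjusted p = 0.806) and the chloride transporter gene Clcn7 by 0.08 (limma adjusted p = 0.766). Of 4 genes of fusion, adhesion and hormone response, 1 was called (all genes tested: 14.7%). Calcr, the calcitonin receptor gene that marks mature osteoclasts, fell by 0.33 (limma adjusted p = 0.0485), with 1 of 3 controls and 0 of 3 mutants above background, and leaving out any array ended the call (adjusted p = 0.0667 to 0.196), as did median centring, no filter, an intensity trend, a pseudocount of 16 and the replicate block (adjusted p = 0.0546 to 0.0932).

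Genes listed as partners or regulators of RANK ligand or its decoy were called in 6 of 10 cases (all genes tested: 14.7%), 5 higher and 1 lower. The 5 include Tnfsf10, another ligand of osteoprotegerin, which was at background on all 6 arrays (difference 0.61, limma adjusted p = 0.00444) and so has no measured level. Mmp14, a membrane protease that can shed RANK ligand, rose by 1.52 (limma adjusted p = 0.00137), and Adam10, another sheddase gene, differed by -0.40 (adjusted p = 0.386). The cytokine gene Il6, an inducer of RANK ligand in stromal cells, was 7.01, 6.16 and 5.74 in the controls and 7.76, 8.47 and 8.08 in the mutants. It rose by 1.80 (limma adjusted p = 0.0107), above background on all mutants and 1 control. Without control replicates 2 and 3, which leaves 1 control, the rise was 1.10. Pth1r, the parathyroid hormone receptor gene, through which that hormone raises RANK ligand in bone, fell by 1.13 (limma adjusted p = 0.00066). Sema3a rose by 0.83 (limma adjusted p = 0.0185), with 0.0651 without control replicate 2 and 0.0514 without mutant replicate 3, and exceeded the background on 1 of 6 arrays. Wnt16 rose by 0.57 (limma adjusted p = 0.0104), above background on 1 control and all mutants. Lgr4, a second receptor of RANK ligand, and Vdr, the vitamin D receptor gene, differed by 0.28 and -0.02 (limma adjusted p = 0.306 and 0.965).

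**Figure D4:**
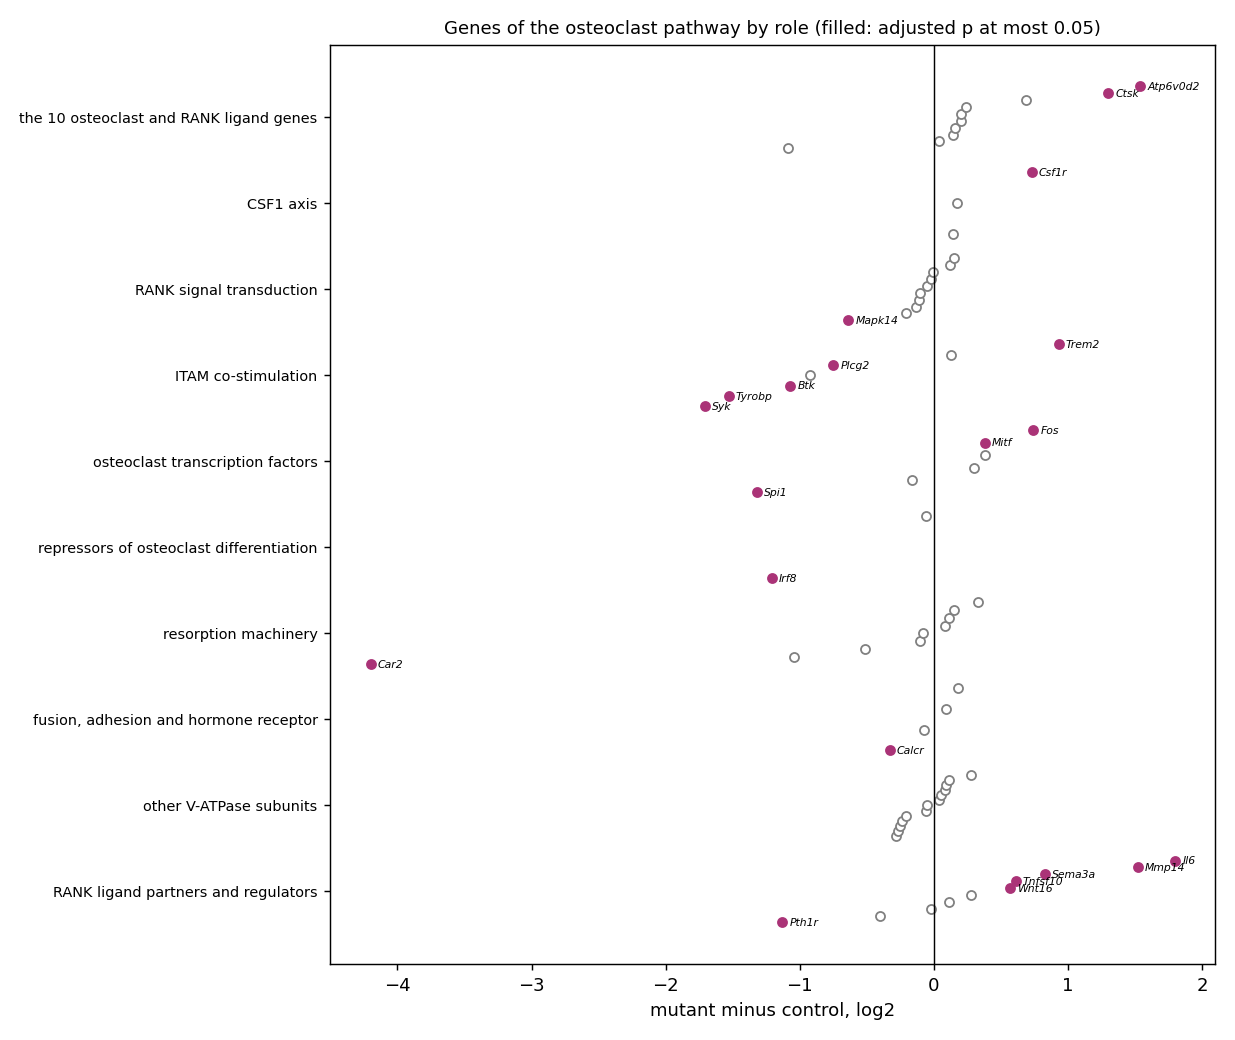
Difference between Lkb1 mutant and control arrays, on the log2 scale, for the 10 genes and for 64 further pathway genes grouped by role; each point is 1 gene, and filled, named points passed a limma adjusted p of 0.05. The 13 other V-ATPase subunits lie close to 0 with no filled point, Car2 stands apart at -4.20, and filled points lie on both sides of 0.

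Genes whose pattern over the 6 arrays was most like that of 3 members were found by the distance between log2 values centred on each gene's mean. Nearest to Ctsk were Gpm6b, a membrane glycoprotein gene, Frzb, a secreted Wnt antagonist, and Fzd1, a Wnt receptor, each at a distance of 0.13 and each called higher, by 1.21, 1.31 and 1.23. Frzb, for example, was 10.09, 10.10 and 9.52 in the controls and 11.35, 11.09 and 11.20 in the mutants, lowest on control replicate 3 as Ctsk was. Nearest to Tnfsf11 were Npb (distance 0.09), Rasl11b (0.12) and Alox12b (0.12), none of them called. Nearest to Tnfrsf11b were Olfr645 (0.12), Tll1 (0.17) and the pseudogene Phf8-ps (0.17), none called and the first an olfactory receptor gene at background, so likeness at this size of change carries little.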

How the data were processed

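The values are the intensities the authors deposited for 35512 probe sets on 6 single-channel Affymetrix arrays. They are on a linear scale from 0.74 to 9001, and their summary and normalisation method is unknown: not given in the sources used here. Per the labels' protocols, total RNA was isolated with a column kit and 300 ng was labelled. Groups and replicate numbers came from the sample titles.

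Gene names are those of the platform annotation, brought up to date with RefSeq (GRCm38.p6) by gene number; 21789 had 1 gene, 1621 several, and 12102 were not listed. Intensities were transformed to log2(intensity + 1). The dimmest 25% of probe sets (mean below 5.56) were left out and the brightest 1-gene probe set per gene was kept, which left 17020 genes; all 10 genes described passed. limma 3.58.1 in R 4.3.3 (lmFit, eBayes, two-sided, Benjamini-Hochberg over all genes) compared the groups, and it was tested on simulated data. Further genes were named by rule: up to 4 called genes of largest change per role group, otherwise the 2 of smallest p; other genes were picked after seeing their values. All genes, lists and tests were chosen with earlier results of these data known. Of 68 further pathway genes, 64 were measured.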

Additional observations from a re-analysis of the deposited data

How the results depend on the processing

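Ctsk (1.10 to 1.40, adjusted p up to 0.0141) and Atp6v0d2 (1.36 to 1.61, adjusted p up to 0.0104) were called by limma under all 16 alternatives. These were quantile normalisation, median centring, 2 other filters, a replicate block, array weights, a variance trend with intensity, averaged probe sets, 16 as the pseudocount, and arrays left out. Without 1 array, the genes called numbered 936 to 3282, the members called 2 to 3 and the pathway genes called 10 to 24. Array weights, a fit that stopped before converging, called 8006 genes, 6 members (Acp5, Tnfrsf11a, Itgb3 and Tnfsf11 besides) and 39 pathway genes. Without control replicates 2 and 3 together, 11 pathway genes were called. Signs changed for 5 values. Dcstamp was -0.01 with array weights and without control replicate 3, and -0.02 without mutant replicate 2 (-0.02 to 0.13 over single arrays left out); Tnfrsf11b was -0.02 without control replicate 1 (-0.02 to 0.36); Phf8-ps was -0.08 with array weights and -0.10 without control replicate 1 (-0.10 to 0.24). The ligand to decoy difference of 0.04 lay between -0.15 and 0.21 without 1 array (-0.10 without control replicate 2, -0.15 without mutant replicate 1), and was -0.17 without control replicates 2 and 3. The difference of Ctsk to Acp5 was -0.10 without those 2 arrays. The cause of these shifts was not tested. The labels do not say whether replicate numbers pair the samples. Deviations from the group means correlated at 0.08, 0.21 and -0.08 for equal numbers and at -0.18 to 0.11 for unequal numbers. Control replicate 1 correlated best with mutant replicate 3 (0.11). Deviations of 3 arrays sum to 0 within each group, so these correlations depend on each other and cannot decide whether samples were paired. With the replicate number as a block, 2031 genes, 2 members and 18 pathway genes were called. The replicate block ended the calls of Mitf (adjusted p = 0.0582) and Calcr (0.0932). Genes at background in 1 group or both (Dcstamp, Oscar, Tnfsf10, Atp6v0d2 in the controls, and Car2, Ppbp, Btk and Phex in the mutants) have limited fold changes. So do genes above background on only part of the arrays of a group, among them Itgb3 and Syk in the mutants and Trem2, Il6 and Mitf in the controls.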
